A study of Drosophila melanogaster with 8 samples.

Results

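Flies are ectotherms, so the temperature of their heads follows that of the air, and lowering it by a few degrees slows enzymes, membranes and synapses. Adult flies are known to answer mild cold with changes in lipids, sugars, ion transport, stress proteins and the daily timing of activity. This report describes how the polyA+ RNA of Drosophila heads differed between 18°C and 25°C, the cold step of a study that also included 29°C.

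All libraries were made from heads of Canton-S flies, a wild-type laboratory strain, that were held under cycles of light and dark. The 5 libraries compared were chosen by their labels from the 8 of the series: 3 at 18°C (ZT3, ZT15 and ZT23) and 2 at 25°C (ZT3 and ZT15), where ZT counts the hours from lights on. The 3 libraries at 29°C (ZT3, ZT15 and ZT23) entered the model that estimates the spread. The sample labels give the late library as ZT23, whereas the methods name ZT21. The series text says that flies were grown at their temperature and the methods describe entrainment to it, so how long before collection the temperatures began to differ is not settled. Sex and age are not stated. Each temperature and time point had 1 library, so time points stood in for replicates, and nothing states whether separate cultures were used for them. P-values therefore measure the spread between these libraries, and in whole heads fewer cells of a type cannot be told apart from less RNA per cell.

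The authors deposited the average coverage per base of 18387 transcripts. Library sums ran from 92886 to 108550, and depth in reads is unknown. The 10 highest transcripts took 7.16%, 6.58% and 6.96% of the sum at 18°C, against 10.05% and 9.47% at 25°C. One library outside the comparison, 29°C at ZT15, stood apart: 237 transcripts were more than 20 times higher in it than in any other library, and 590 transcripts were at 0 in it, against 1435 to 1612 elsewhere. Accessory gland markers, and 3 of the 4 midgut markers, passed the filter through that library alone. Markers of the head were present at both temperatures. The summed scaled level of 7 photoreceptor markers was 8932, 10081 and 12326 at 18°C against 10803 and 12719 at 25°C, and that of 5 neuron markers was 469, 496 and 583 at 18°C against 273 and 439 at 25°C.

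Values were scaled to a sum of 1000000 in each library, which is called scaled coverage here. A difference is always 18°C minus 25°C on the scale log2(scaled coverage + 1), which understates the change of low genes. It comes from a linear model in limma with temperature and time point as terms over all 8 libraries, and each gene was represented by its transcript with the highest mean. Genes are said to have risen or fallen at 18°C when their adjusted p was under 0.05.

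Of 8433 genes tested, 1437 rose (17.0%) and 351 fell (4.16%) at 18°C. The median difference of all genes was 0.14. With libraries scaled to their 75th percentile the median was -0.09, and 275 genes rose and 714 fell. With quantile normalization it was -0.07, and 178 rose and 320 fell. Genes called in the same direction under all 3 scalings numbered 158 higher (1.87%) and 251 lower (2.98%). These are called firm below, and a list's median is given after subtraction of the median of all genes. With time point left out of the model, called no replicate block below, 426 of the 8433 genes rose and 171 fell. Without either ZT3 library, at 18°C or at 25°C, 0 transcripts passed the adjusted threshold in either direction, with 4004 and 3785 under an unadjusted p of 0.05. A statement that a gene rose or fell therefore rests on both libraries of the ZT3 pair.

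The pairs at ZT3 and ZT15 share no library. Across genes their differences had a Spearman correlation of 0.66 and a Pearson correlation of 0.72 (n = 8433 genes, which are not independent). A difference of at least 1 in the same direction in both pairs was found in 141 genes that were higher and 42 that were lower at 18°C, and 3 genes had differences of that size in opposite directions. The ZT3 pair had more large differences, with 420 genes at 1 or beyond against 277 in the ZT15 pair.

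**Figure D1:**
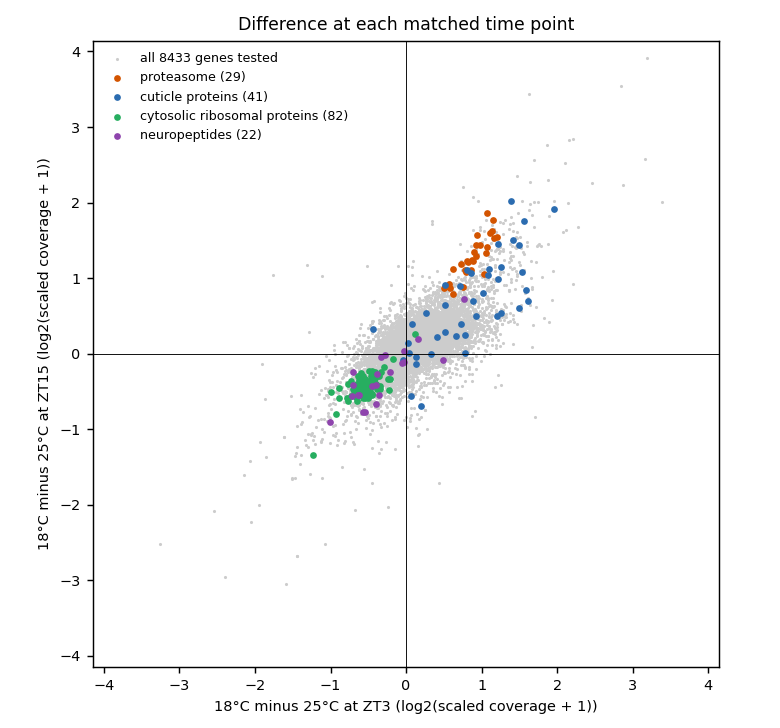
Difference between 18°C and 25°C at ZT3 (x axis) and at ZT15 (y axis) on the log2(scaled coverage + 1) scale; each point is 1 of 8433 genes, and 4 gene lists are coloured. The 29 proteasome genes lie together at the upper right, and nearly all of the 82 cytosolic ribosomal protein genes lie at the lower left.

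Differences also followed transcript length. When genes were divided into 5 groups by length, the median difference was -0.03 in the group of shortest genes (median 818 bp) and 0.03, 0.10, 0.18 and 0.32 in the following ones, up to a median of 4774 bp. The share of genes that rose was 7.70% in the shortest and 32.8% in the longest group, and the share that fell was 11.2% and 0.18%. The trend was steeper in the ZT3 pair (Spearman correlation of length and difference 0.45) than in the ZT15 pair (0.29). Its part in the results below was not tested, and counts with the length trend removed from each library are given where they bear on a list. With it removed, 323 of 8178 genes rose and 269 fell.

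**Figure D2:**
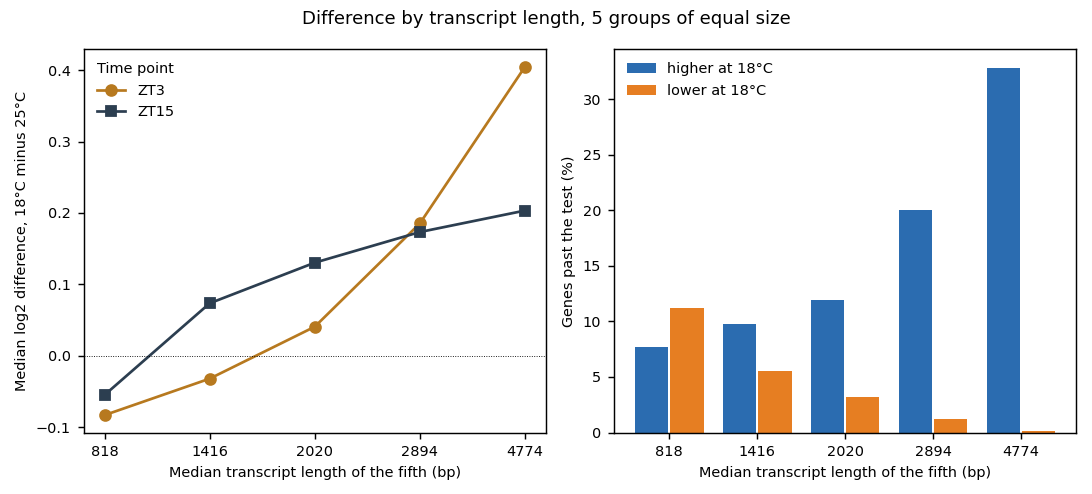
Left: median log2 difference between 18°C and 25°C in 5 groups of genes of increasing transcript length, at ZT3 and at ZT15. Right: percentage of genes in each group that rose or fell at 18°C (limma, adjusted p under 0.05). The share that rose is 7.70% in the shortest and 32.8% in the longest group.

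Proteasome genes rose. This complex degrades proteins that carry ubiquitin chains: its 20S core holds the protease sites inside stacked rings of alpha and beta subunits, and its 19S cap binds, unfolds and feeds in the substrate. All 29 subunit genes that passed the filter rose at 18°C, against 17.0% of all genes, with differences from 0.65 to 1.38. Their median was 0.85 above that of all genes. In 27 of the 29 genes all 3 libraries at 18°C lay above both at 25°C, against 32.3% of all genes. The other 9 genes of the list had mean levels under 1 and were not tested. They are paralogs of single subunits, and the highest of them was Rpt6R.

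Median differences were larger in the cap than in the core. The 5 ATPases (Rpt2 to Rpt6), which unfold substrates, had a median difference of 1.12, and the 10 non-ATPases of the cap one of 1.18. The 8 alpha and 6 beta genes of the core had medians of 0.93 and 0.84. That gap was not tested. Summed over the non-ATPases, scaled coverage was 985, 1061 and 609 at 18°C (ZT3, ZT15 and ZT23), against 494 and 377 at 25°C. The 18°C library at ZT23 was the lowest of its temperature in each of the 4 subunit classes, and it has no partner at 25°C.

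Rpn11, the deubiquitinase of the cap, had the largest difference of the subunits. Its levels were 121, 134 and 68.7 at 18°C against 57.3 and 36.4 at 25°C (difference 1.38 ± 0.26 SE, limma adjusted p = 0.022). Rpn1, a scaffold of the cap to which ubiquitin-like proteins bind, had 90.4, 96.2 and 58.1 at 18°C against 39.8 and 32.7 at 25°C (1.28 ± 0.18, adjusted p = 0.016). Its neighbour Rpn2 had 76.7, 81.6 and 49.1 at 18°C against 34.97 and 26.2 at 25°C. The ATPase Rpt3 had 142, 153 and 92.8 at 18°C against 61.0 and 52.1 at 25°C. In all of these the groups did not overlap, and ZT23 was the lowest library at 18°C.

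The catalytic subunits Prosbeta1 and Prosbeta2 were among those with smaller differences, and the 6 beta genes ranged from 0.65 to 0.99. Prosbeta1, which carries the caspase-like site, had 110.4, 119 and 87.6 at 18°C against 77.3 and 65.1 at 25°C, and a difference of 0.65. Prosbeta2, with the trypsin-like site, had 104, 112 and 67.5 at 18°C against 69.7 and 58.9 at 25°C, where the ZT23 library at 18°C fell below ZT3 at 25°C. Prosalpha1 had 140.4, 126 and 93.9 at 18°C against 68.1 and 60.3 at 25°C. A close copy of it, Prosalpha1R, is listed too, and reads may have been split between them.

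The count of subunits that passed depended on the scaling, while the median moved little between scalings: 12 rose and 0 fell under 75th percentile scaling and 7 rose and 0 fell under quantile normalization, with medians 0.82 and 0.84 above all genes. The same 7 are firm, against 1.87% of all genes: Prosalpha1, Rpt3, Rpt6, Rpn1, Rpn2, Rpn9 and Rpn10. With the length trend removed 28 rose, and their median length was 1208 bp. With no replicate block, that is without time point in the model, 13 rose. The count fell to 3 without 18°C ZT15, to 6 without 25°C ZT15, to 21 without either ZT23 library and to 0 without either ZT3 library at 18°C or 25°C, while the medians stayed 0.63 to 1.11 above all genes.

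The genes Ube4B, TppII and Uch-L5 of the same pathway lie outside the list. They were chosen after their values were seen, and they say nothing of other genes of the pathway. Ube4B, which lengthens ubiquitin chains, had 65.7, 63.0 and 39.2 at 18°C against 20.3 and 12.2 at 25°C (1.92 ± 0.23, adjusted p = 0.015). TppII, a giant peptidase that cuts the peptides released by the proteasome, had 58.7, 61.2 and 36.3 at 18°C against 22.2 and 18.7 at 25°C. Uch-L5, a deubiquitinase that sits on the cap, had 25.7, 22.4 and 14.8 at 18°C against 11.1 and 6.20 at 25°C. In each gene the groups did not overlap and ZT23 was the lowest of the 18°C libraries. Chaperones are the other arm of protein quality control. Of 21 tested, 2 rose (CCT7 and DnaJ-H) and 0 fell, against 17.0% and 4.16% of all genes, and 0 were firm. Hsc70-4, the main constitutive Hsp70, had 559, 601 and 633 at 18°C against 700.1 and 767 at 25°C (difference -0.32, adjusted p = 0.052).

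**Figure D3:**
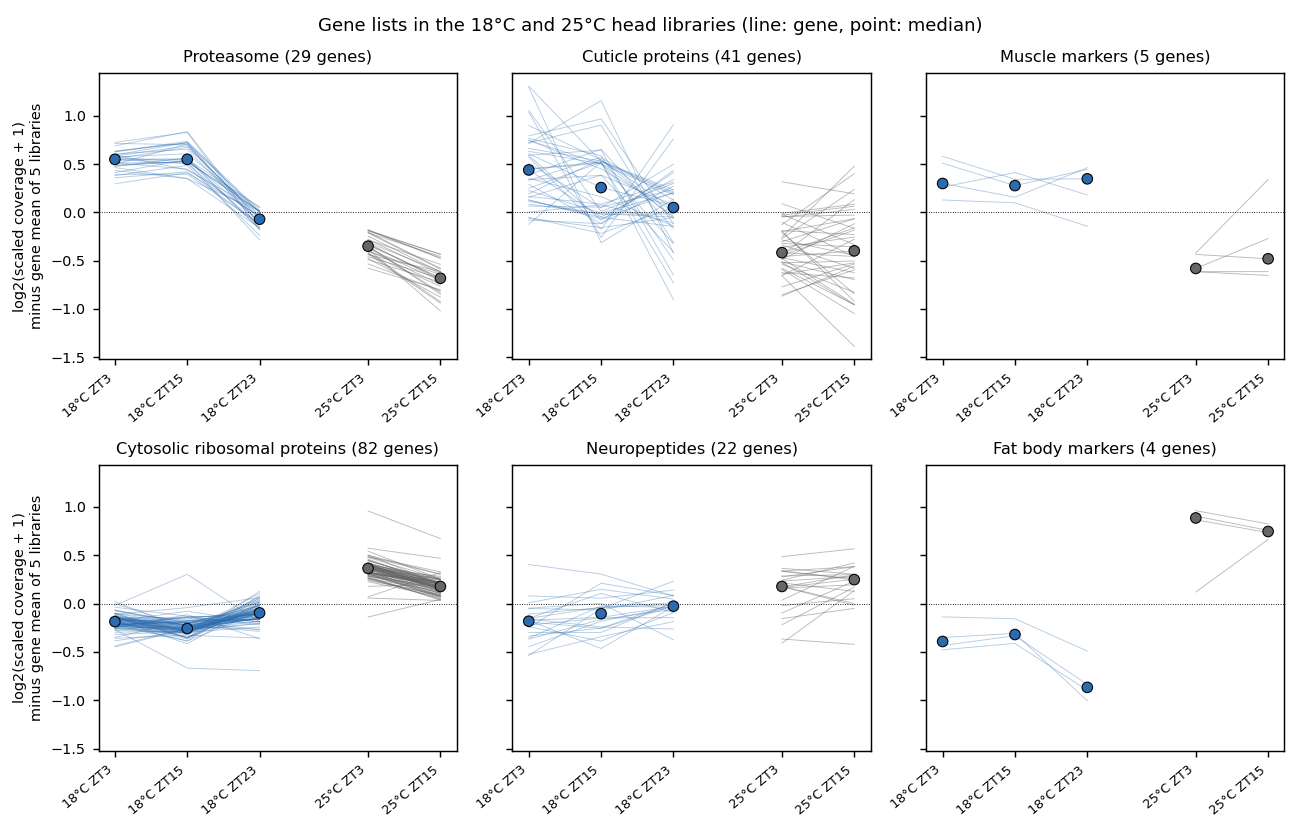
Level of each gene (lines) in the 18°C and 25°C libraries as log2(scaled coverage + 1) minus the gene's mean over the 5 libraries, with the median of the list as a point, for 6 gene lists. Proteasome, cuticle and muscle genes sit higher in the 18°C libraries, and cytosolic ribosomal protein, neuropeptide and fat body marker genes sit lower.

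Many cuticle genes rose. The head is enclosed in cuticle, layers of chitin bound by proteins of the Cpr and related families, which also form the lenses of the eye. Of 103 genes listed, 41 passed the filter. Of these 19 rose and 0 fell, against 17.0% and 4.16% of all genes, and 7 were firm, against 1.87%. In 25 of the 41 all libraries at 18°C lay above both at 25°C, against 32.3% of all genes. The median was 0.62 above that of all genes and the range was wide, from -0.33 to 1.97. With the length trend removed 11 rose, with no replicate block 11 and with 75th percentile scaling 9. Without 18°C ZT15 11 rose, without 25°C ZT15 8 and without either ZT23 library 12.

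Cpr50Cb changed most. It had 34.8, 19.9 and 15.8 at 18°C against 8.19 and 4.54 at 25°C (1.97 ± 0.18, adjusted p = 0.015). Cpr100A, the highest of the firm genes, had 599, 468 and 329 at 18°C against 224 and 165 at 25°C (1.39 ± 0.21). Cpr11B had 47.7, 50.1 and 39.8 at 18°C against 21.9 and 23.8 at 25°C, and Cpr67B had 179, 130.2 and 178 at 18°C against 109 and 69.6 at 25°C. None of the 4 overlapped between temperatures. Other cuticle genes did not pass, such as Cpr49Ag, which had 107, 113 and 98.7 at 18°C against 104.5 and 112 at 25°C.

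The chitin genes kkv, verm, serp, knk and Gasp were chosen after their values were seen, and they say nothing of other chitin genes. The chitin synthase kkv had 20.3, 20.8 and 11.7 at 18°C against 5.82 and 4.51 at 25°C (1.74 ± 0.23, adjusted p = 0.016). The chitin deacetylase verm had 250, 205 and 139 at 18°C against 66.7 and 57.2 at 25°C (1.70 ± 0.29), and its neighbour serp had 182, 143 and 99.7 at 18°C against 69.5 and 55.6 at 25°C. The chitin organiser knk had 7.11, 5.20 and 4.26 at 18°C against 2.57 and 1.80 at 25°C. The chitin-binding protein Gasp had 193, 199 and 124 at 18°C against 81.2 and 78.0 at 25°C. The library at ZT23, which has no partner at 25°C, was the lowest of the 18°C libraries in all 5. How many of all genes share that order was not counted. CG7214, which lies in a group of adult cuticle genes, had 1281, 1047 and 1191 at 18°C against 385 and 390 at 25°C (1.52 ± 0.23).

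The largest rises were found by rule: the adjusted p was under 0.05, the temperatures did not overlap, and both pairs differed by at least 1. It was met by 123 genes that rose, of which 67 are firm, and by 34 that fell, of which 31 are firm. Of the 10 largest rises, 3 belong to the Retinin-like group on chromosome arm 3L. CG13063 (BDGP6 3L:16306600-16307205) had 49.2, 33.6 and 15.3 at 18°C against 4.52 and 1.30 at 25°C, the largest rise under the rule (3.40 ± 0.41, adjusted p = 0.015). CG13065 (3L:16277435-16278180) had 74.2, 49.2 and 29.9 at 18°C against 7.42 and 7.40 at 25°C, and CG13056 (3L:16333313-16333782) had 93.2, 67.7 and 48.6 at 18°C against 19.4 and 8.59 at 25°C. In these 3 genes every 18°C library was above both 25°C libraries, as the rule requires. Nplp3 (3L:16318024-16318690), which lies between CG13063 and CG13056, was among the highest transcripts of the head, with 10135, 9461 and 8081 at 18°C against 5937 and 5714 at 25°C (0.68 ± 0.16, adjusted p = 0.033).

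Among the other large rises, Cyp4e3, a cytochrome P450, had 13.3, 21.2 and 6.39 at 18°C against 0.99 and 0.91 at 25°C (3.096 ± 0.28). CG5172 was the most abundant, with 3095, 2569 and 1499 at 18°C against 562 and 536 at 25°C (2.33 ± 0.32). Vajk1, of a family of cuticle proteins, had 17.6, 21.9 and 5.92 at 18°C against 3.15 and 2.22 at 25°C. CG14118 and l(3)mbn rose by 2.64 and 2.07. Sclp and CG14752 rose by 2.63 and 2.18, but neither is firm: Sclp had 294, 235 and 126 at 18°C against 94.2 and 20.7 at 25°C, a wide spread at both temperatures. Reads on Sclp and l(3)mbn cannot be told apart from those on a noncoding RNA that shares their position, since the use of strand is not stated. The same holds for other named genes that share exon positions with a further gene in BDGP6, among them DptB, Gnmt, AttC, Prosalpha1, Prosbeta1, Prosbeta2, TppII, knk, RpS20, per and tim.

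**Figure D4:**
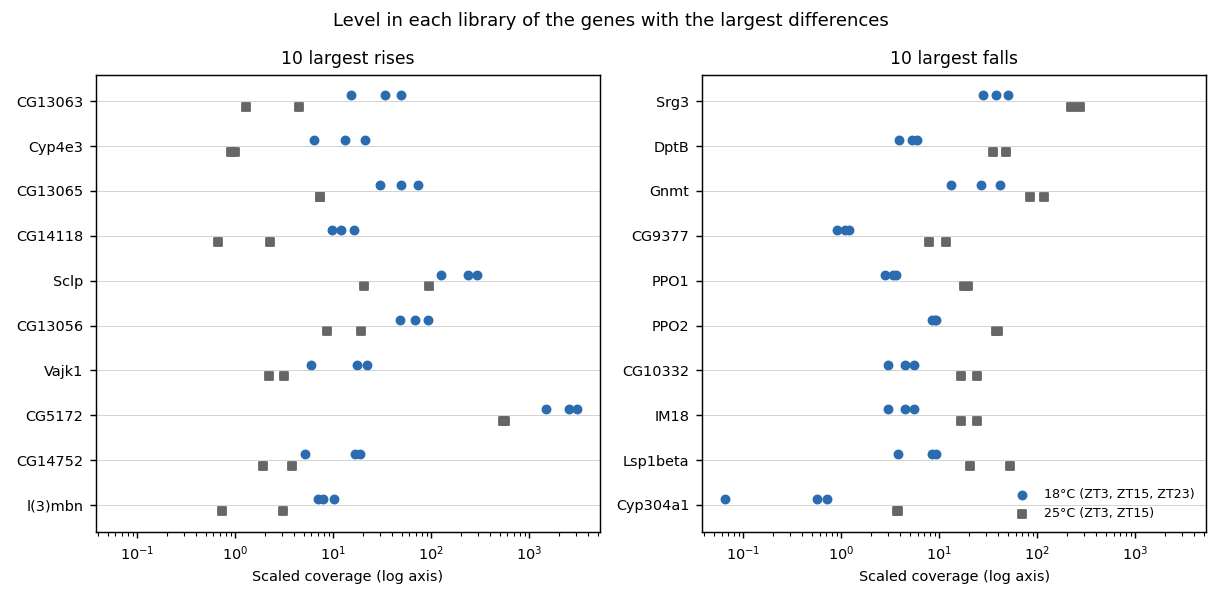
Scaled coverage (log axis) in each library of the 10 genes with the largest rise (left) and the 10 with the largest fall (right) at 18°C; circles are the 3 libraries at 18°C and squares the 2 at 25°C. No gene overlaps between the temperatures, as the rule requires, and CG10332 and IM18 share identical values.

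Muscle genes rose. Heads hold the muscles of the proboscis and antennae. Of 6 markers 5 were tested and 4 rose, against 17.0% of all genes, with 2 firm, against 1.87%. Their median was 0.57 above that of all genes. Without either ZT15 library, at 18°C or at 25°C, 2 rose. The summed level of the markers was 4064, 3712 and 3739 at 18°C against 1985 and 2070 at 25°C. The myosin light chain Mlc2 had 2177, 1846 and 1852 at 18°C against 951 and 925 at 25°C (1.02 ± 0.15, adjusted p = 0.018). Tropomyosin Tm2 had 430, 366 and 411 at 18°C against 197 and 197 at 25°C, and myosin heavy chain Mhc had 883, 981 and 835 at 18°C against 493 and 611 at 25°C. The troponin T gene up rose by 0.65. Act88F, the actin of flight muscle, was low, at 5.68, 5.55 and 4.53 at 18°C against 3.57 and 6.74 at 25°C, and the flight muscle gene TpnC4 was under the filter.

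The muscle genes tn, tmod and Zasp67 were chosen after their values were seen, and they say nothing of other muscle genes. The TRIM protein tn, which maintains myofibrils, had 160.0, 165 and 92.3 at 18°C against 46.9 and 40.1 at 25°C (1.76 ± 0.20). Tropomodulin, tmod, which caps thin filaments, had 271, 284 and 171 at 18°C against 96.1 and 104 at 25°C. The Z-disc gene Zasp67 had 2.70, 4.29 and 1.32 at 18°C against 0.14 and 0.32 at 25°C. Unlike Mlc2 and Tm2, these were lowest at ZT23 among the 18°C libraries.

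Cytosolic ribosomal protein genes fell. These genes encode the protein parts of the ribosome and are among the most abundant short mRNAs of any cell. Of 82 genes tested, 66 fell and 0 rose at 18°C, against 4.16% of all genes that fell. In 77 genes all libraries at 18°C were below both at 25°C, against 14.7% of all genes. The median was 0.59 below that of all genes. Both subunits took part: 26 of 33 genes of the small subunit fell (median difference -0.45) and 40 of 49 of the large one (median difference -0.48). Summed over the large subunit, scaled coverage was 48196, 45720 and 51938 at 18°C against 70396 and 61441 at 25°C, and the sums at 29°C were between 79843 and 88444.

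The size of this fall depended on the processing. Under quantile normalization the median lay 0.21 below that of all genes and 12 genes fell. These 12 are firm, against 2.98% of all genes. Under 75th percentile scaling 73 fell. With the length trend removed 22 fell and the median was 0.36 below, and with no replicate block 29 fell. The count was 10 without 18°C ZT15, 19 without 25°C ZT15, 39 without either ZT23 library, 43 without 29°C ZT3 and 0 without either ZT3 library at 18°C or 25°C, with medians 0.55 to 0.63 below all genes. Their median length was 709 bp, within the group of the shortest genes. RpS20 had the smallest adjusted p of the list, with 793, 811 and 794 at 18°C against 1514 and 1408 at 25°C (-0.84 ± 0.10, adjusted p = 0.015). RpL37-1 had 687, 692 and 732 at 18°C against 1181 and 1042 at 25°C. Both had tight, separate groups. RpS3A, which did not pass the test, had 1120, 1049 and 1039 at 18°C against 1376 and 1190 at 25°C. Of 64 mitochondrial ribosomal proteins, similar in length (median 746 bp), 1 fell and 0 rose, against 4.16% and 17.0% of all genes (median 0.14 below all genes). Of 66 genes of oxidative phosphorylation 0 passed the test in either direction (median 0.15 below). With the length trend removed both medians changed sign, to 0.11 and 0.07 above all genes.

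Several neuropeptide genes fell. These short secreted signals set feeding, sleep and hormone release, and each is made in a small number of neurons or gut cells. Of 22 genes tested, 7 fell and all 7 were firm, against 4.16% and 2.98% of all genes. The 1 that rose was Nplp3, which is named as a peptide precursor. The median was 0.50 below that of all genes, and in 13 genes all libraries at 18°C lay below both at 25°C, against 14.7% of all genes. Allatostatin C, AstC, had 16.8, 19.2 and 21.5 at 18°C against 34.9 and 37.0 at 25°C (-0.90 ± 0.12, adjusted p = 0.016). Corazonin, Crz, a peptide of stress responses, had 19.1, 17.1 and 21.2 at 18°C against 28.9 and 29.9 at 25°C. Neuropeptide F, NPF, had 11.7, 11.7 and 14.7 at 18°C against 18.8 and 17.5 at 25°C. The others that fell were Mip, Trissin, Ms and CCHa2. sNPF, Tk and ITP did not pass, with differences of -0.06, 0.08 and -0.01. With the length trend removed 3 fell, and so did 3 with no replicate block. Without either ZT15 library, at 18°C or at 25°C, 1 fell.

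In other neuronal lists the genes that passed rose. Of 26 ion channel and pump genes 8 rose, and of 28 genes of synaptic release 8 rose, with 0 falls in both, against 17.0% of all genes and 32.8% of the longest group that rose. These genes are long (medians 3867 and 3809 bp), and with the length trend removed 0 passed in either list. The medians were 0.24 and 0.19 above all genes, and 0.12 and 0.07 without 25°C ZT3. The exception among the scalings was Atpalpha, the catalytic subunit of the sodium pump, which is firm: 865, 906 and 900 at 18°C against 431 and 623 at 25°C (0.75 ± 0.13, adjusted p = 0.019). Of 5 glial markers 2 rose and 0 fell, against 17.0% and 4.16% of all genes, with differences from -0.15 to 0.66. Under 75th percentile scaling 1 rose and 1 fell, against 275 and 714 of 8422 genes. The firm one was the glutamate transporter Eaat1, with 205, 225 and 190.1 at 18°C against 123 and 154.5 at 25°C.

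In the eye, 10 of 32 phototransduction genes rose and 1 fell, against 17.0% and 4.16% of all genes, with a median 0.05 above that of all genes. With the length trend removed 2 rose and 1 fell, and with no replicate block 3 rose and 0 fell. Under 75th percentile scaling 3 rose and 3 fell, against 275 and 714 of 8422 genes. The myosin ninaC of photoreceptors had 797, 907 and 816 at 18°C against 455 and 551 at 25°C (0.77 ± 0.09, adjusted p = 0.015). ninaD, a scavenger receptor that takes up carotenoids for the visual pigment, rose by 0.90, and both are firm. inaF-B, a small partner of the TRP channel, had 142, 182 and 155 at 18°C against 193 and 312 at 25°C (-0.61 ± 0.11). It shares exons with other inaF genes. The main rhodopsin ninaE had 6883, 7694 and 10004 at 18°C against 9092 and 10587 at 25°C and did not pass (adjusted p = 0.071).

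Some immune effectors fell. DptB, a diptericin against Gram-negative bacteria, had 5.88, 5.25 and 3.84 at 18°C against 35.3 and 47.5 at 25°C (-2.57 ± 0.35, adjusted p = 0.016). AttC, an attacin, had 5.74, 5.90 and 3.06 at 18°C against 18.3 and 20.7 at 25°C. These were the 2 antimicrobial peptide genes of 14 tested that fell, against 4.16% of all genes. Both are firm, against 2.98%. The median of the 14 was 0.61 below all genes. With the length trend removed 2 fell and the median was 0.33 below. AttA and AttB, near-identical copies, had differences of -1.65 and -1.79 and adjusted p of 0.069 and 0.075. IM18 had 5.51, 2.96 and 4.48 at 18°C against 16.7 and 24.4 at 25°C. CG10332, which has the same span in BDGP6 and overlaps its exons, has identical values.

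The prophenoloxidases fell with small errors. These enzymes of crystal cells, a type of blood cell, start the blackening of wounds. PPO1 had 3.58, 3.38 and 2.78 at 18°C against 17.9 and 19.5 at 25°C (-2.09 ± 0.11, adjusted p = 0.0053). PPO2 had 8.95, 9.23 and 8.37 at 18°C against 37.4 and 40.1 at 25°C (-1.99 ± 0.09, adjusted p = 0.0042). Of 4 other blood cell markers tested (Hml, NimC1, Pxn and crq) 0 passed, and He was under the filter. The summed level of the 5 was 111, 122 and 104 at 18°C against 105 and 114.6 at 25°C. Whether the number of crystal cells differed was not tested. Of 18 immune recognition genes 1 rose, Dif, and 1 fell, vir-1, against 17.0% and 4.16% of all genes. The levels of vir-1 were 327, 354 and 374 at 18°C against 517 and 569 at 25°C.

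Of 4 fat body markers 3 fell at 18°C, against 4.16% of all genes, beside these immune genes. The fat body of the head makes yolk proteins in females and many antimicrobial peptides. Yp1 had 7093, 7606 and 5363 at 18°C against 17471 and 15942 at 25°C (-1.32 ± 0.27, adjusted p = 0.024), and Yp2 and Yp3 fell by 1.34 and 1.48. Yp1 is firm and the other 2 are not, because they did not pass under quantile normalization. Without 25°C ZT15 none of the 4 markers passed. The sum of the 4 fat body markers was 19339, 20315 and 13906 at 18°C against 48444 and 44214 at 25°C. At 29°C it was 16975, 10124 and 16867, so the 25°C libraries were the highest of the series. In a wider list of yolk and sex markers of head fat body, 5 of 15 genes tested fell and 2 rose. The shares of all genes were 4.16% and 17.0%, and differences in the list ran from -1.83 to 2.16. sxe2, a lipase gene set by sex, had 55.1, 54.2 and 95.9 at 18°C against 137 and 129 at 25°C. Lsp1beta had 9.21, 8.37 and 3.77 at 18°C against 20.5 and 52.5 at 25°C. Not all fat body genes fell: apolpp did not pass (difference -0.43), and Lsp1gamma rose, with 4.25, 2.67 and 1.16 at 18°C against 0.53 and 0.37 at 25°C. Of 9 ovary markers 4 passed the filter, osk, otu and yl through the 29°C library at ZT15 alone, and 0 passed the test. The summed level of the 9 was 10.2, 12.7 and 10.8 at 18°C against 14.03 and 13.1 at 25°C, and 77.8 in that 29°C library. The part of fat body content or sex ratio in the falls was not tested.

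The remaining large falls were Srg3, Gnmt, CG9377 and Cyp304a1. Srg3 had 27.9, 37.6 and 50.5 at 18°C against 275 and 221 at 25°C, the largest fall under the rule (-2.79 ± 0.21, adjusted p = 0.015). Gnmt, which uses up the methyl donor S-adenosylmethionine, had 26.9, 13.1 and 42.0 at 18°C against 83.3 and 116 at 25°C. CG9377 had 1.20, 1.08 and 0.90 at 18°C against 11.8 and 7.83 at 25°C. All 4 are firm.

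Several cytochrome P450 and odorant binding genes fell. Other lists of detoxification genes had few falls. Of 18 glutathione S-transferases tested, 2 rose and 0 fell, against 17.0% and 4.16% of all genes. Of 17 UDP-glycosyltransferases tested, 4 rose and 1 fell. Of 55 cytochrome P450 genes, 6 rose and 10 fell, against 17.0% and 4.16% of all genes, with 1 and 8 firm, against 1.87% and 2.98%. Cyp6w1 had 21.7, 22.95 and 28.7 at 18°C against 58.8 and 59.8 at 25°C (-1.25 ± 0.18), Cyp9c1 fell by 0.96, and Cyp304a1 had 0.065, 0.56 and 0.72 at 18°C against 3.71 and 3.78 at 25°C. Odorant binding proteins carry odorants and other small molecules in the fluid of sense organs. Of 27 tested, 3 rose and 8 fell, against 17.0% and 4.16% of all genes, with 1 and 6 firm, against 1.87% and 2.98%. Their median length was 597 bp. With the length trend removed 1 rose and 4 fell, and with no replicate block 2 rose and 4 fell. The median was 0.16 below that of all genes, and 0.07 above it with the length trend removed. Without 18°C ZT15 5 P450 genes and 3 odorant binding genes fell, and without 25°C ZT15 4 and 2. Obp56h had 11.1, 8.71 and 12.4 at 18°C against 33.4 and 29.8 at 25°C (-1.56 ± 0.11), and Obp19d had 450.1, 484 and 736 at 18°C against 1039 and 1112 at 25°C. Obp44a went the other way, with 2754, 2212 and 2926 at 18°C against 1434 and 1336 at 25°C (0.84 ± 0.09). Only 8 of 149 odorant, gustatory and ionotropic receptor genes passed the filter, and 1 of them, Ir68a, rose, against 17.0% of all genes.

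Metabolic genes were followed in lists of sugar and lipid enzymes. Of 21 genes of glycolysis and carbohydrate stores, 5 rose and 0 fell, against 17.0% and 4.16% of all genes, but 0 are firm, and without either ZT15 library at 18°C or 25°C 0 rose. They were the glycogen enzymes AGBE, Glyp and Glys with PyK and Gpdh1. AGBE, which branches glycogen, had 308, 266 and 178 at 18°C against 138 and 93.0 at 25°C (1.18 ± 0.23, adjusted p = 0.023), and Glyp, which breaks it down, had 831, 803 and 523 at 18°C against 428 and 430.3 at 25°C. Of 21 fatty acid desaturases and elongases, 5 rose and 1 fell, against 17.0% and 4.16% of all genes. Of these 2 and 0 were firm, against 1.87% and 2.98%. The desaturase relative CG9747 had 55.3, 56.4 and 51.5 at 18°C against 29.97 and 34.1 at 25°C (0.76 ± 0.10), and the elongase CG31522 had 86.5, 81.2 and 69.8 at 18°C against 49.1 and 51.2 at 25°C. Both are firm. Desat1, the main desaturase that puts the first double bond into fatty acids, had 847, 1095 and 1023 at 18°C against 1288 and 1396 at 25°C (-0.49 ± 0.10, adjusted p = 0.027) and is not firm. In a list of genes known from cold responses, 2 of 15 rose and 1, Desat1, fell, against 17.0% and 4.16% of all genes. InR, the insulin receptor, had 8.11, 7.62 and 7.73 at 18°C against 3.14 and 5.33 at 25°C, a difference of 0.78 that is not firm.

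Regulators of splicing choose which exons are joined. Of 46 tested, 7 rose, a share near the 17.0% of all genes, and 0 fell, and the median was 0.05 below that of all genes. Doa, a kinase that phosphorylates SR splicing proteins, is the firm one: 105, 84.7 and 73.3 at 18°C against 46.8 and 45.5 at 25°C (1.02 ± 0.13, adjusted p = 0.015). The RNA-binding proteins how, heph, mub and Hrb27C rose by 0.69, 0.64, 0.71 and 0.51. Under 75th percentile scaling 2 of the list rose and 5 fell, against 275 and 714 of 8422 genes. At the level of transcripts, the share of a gene taken by each listed transcript was tested in 3011 genes, and 0 passed (limma, smallest adjusted p = 0.076, 351 genes under an unadjusted p of 0.05; diffSplice also 0, with 23 unadjusted). The smallest p belonged to CG4975, whose transcript CG4975-RC took 27.6%, 28.0% and 27.9% of the gene at 18°C against 32.6% and 33.2% at 25°C. These averages include the exons that transcripts share, so they blur changes in single exons.

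The clock list differed by time point. In the fly clock, Clk and cyc activate per, tim and vri, whose products feed back on them, and per, tim and vri RNA peaks early in the night. Of 20 clock genes tested, 2 rose (Dyrk3 and sgg) and 0 fell, against 17.0% and 4.16% of all genes, and 0 are firm. No core gene passed. Summed over its 8 transcripts, tim had 202 (ZT3), 654 (ZT15) and 149 (ZT23) at 18°C, against 100.4 (ZT3) and 1100 (ZT15) at 25°C. For vri the sums were 97.8, 141 and 46.9 at 18°C against 28.1 and 257 at 25°C, and for per 11.3, 19.6 and 7.65 at 18°C against 5.50 and 22.7 at 25°C. All 3 genes were higher at 18°C in the morning pair and lower at 18°C in the evening pair. The morning and evening differences were 0.92 and -0.75 for the main tim transcript, 1.71 and -0.84 for vri and 0.92 and -0.20 for per, each between single libraries. Clk, which runs in the opposite phase, had 28.2, 22.0 and 34.5 at 18°C against 21.9 and 13.7 at 25°C. The share of the tim transcript CG3234-RC was 11.9%, 11.5% and 11.8% at 18°C against 9.22% and 10.4% at 25°C, without a test beyond that of transcript use.

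**Figure D5:**
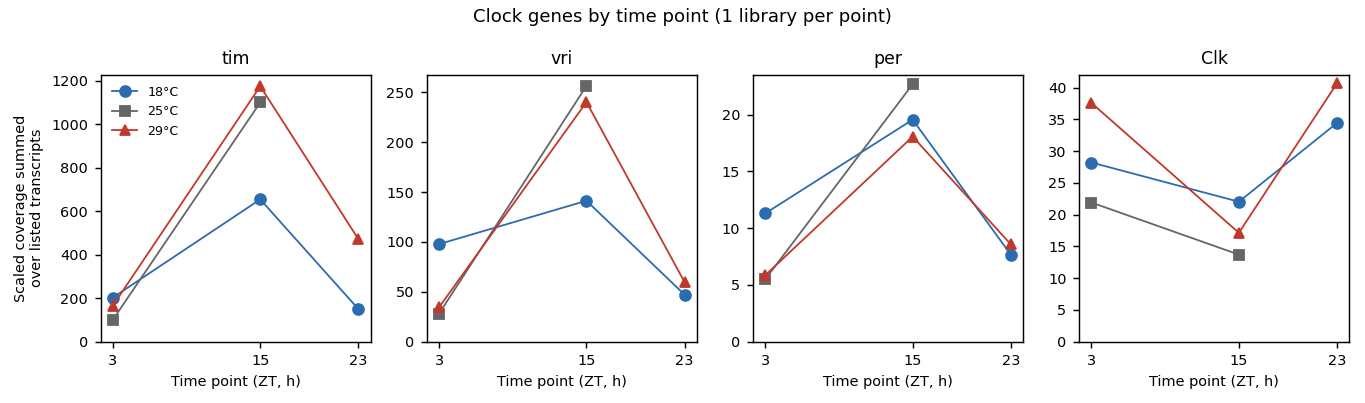
Scaled coverage summed over the listed transcripts of tim, vri, per and Clk at ZT3, ZT15 and ZT23 (x axis, hours) for each temperature, with 1 library per point and no library at ZT23 for 25°C. tim and vri lie above the 25°C point at ZT3 and below it at ZT15 in the 18°C libraries.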

How the data were processed

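PolyA+ RNA of fly heads was sequenced from both ends in 8 libraries. The submitters' processing notes name Bowtie2, TopHat, Cufflinks and dm3; which program averaged the coverage, and whether strand was used, is not given in the sources used here. The authors deposited coverage (signal) per base pair of each transcript, not counts. Another 56 columns without a name hold values in 99 rows and were not used. Of 18387 transcripts, 274 were at 0 throughout.

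Coverage was scaled to a sum of 1000000 per library. Transcripts with a mean of at least 1 were kept (14799 transcripts, 8433 genes), and log2(scaled value + 1) was fitted with limma 3.58.1 in R 4.3.3 on temperature and time point over 8 libraries, with Benjamini-Hochberg adjustment. Time point is in the labels and served as the replicate block: deviations of 18°C and 25°C libraries of the same time point correlated at 0.35 (ZT3) and 0.26 (ZT15). With 2 libraries at 25°C their deviations are mirror images, so both values rest on the same 25°C difference. Between 18°C and 29°C the correlations were 0.096 (ZT3), 0.16 (ZT15) and 0.31 (ZT23). Transcript use was tested as the log2 ratio of a transcript to its gene. Gene positions and lengths came from BDGP6 (8178 of 8433 genes had a length), while the files use dm3. Named were the 10 largest rises and falls past the threshold, without overlap and with both pairs at 1 or more; the clock list; 4 genes of each other list by adjusted p; and 5 genes for transcript use. Other genes were chosen after their values were seen. Members and lists were chosen with earlier results of these data known. In simulated data with 200 changed transcripts and independent noise, the test recovered 92% at a log2 change of 1, with 10 false calls among 194, and 0% at 0.5. These rates do not carry over to the data. There 3639 transcripts passed, some with differences under 0.5, such as CCT7 at 0.34. Alternatives were pseudocounts of 0.1 and 5, no filter or a minimum of 5, 75th percentile and quantile scaling, no replicate block, fewer libraries, limma's trend, sums per gene and, chosen after seeing the data, removal of the length trend and calls held under all 3 scalings. Figures used matplotlib 3.10.9 (Python 3.11.15).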

Additional observations from a re-analysis of the deposited data

Results flagged for a closer look

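The clock genes tim and vri differed in opposite directions at the matched time points. The main transcript of tim had a difference (18°C minus 25°C) of 0.92 on the log2 scale at ZT3 and of -0.75 at ZT15. The main transcript of vri behaved likewise, with 1.71 at ZT3 and -0.84 at ZT15. Each value compares single libraries, and the difference between the time points was not tested.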

How the results depend on the processing

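Of 14799 transcripts, 3139 were higher and 500 lower at 18°C. The paired design mattered: with no replicate block 979 were higher and 235 lower, and with the 5 libraries at 18°C and 25°C and no replicate block 673 and 202. Without a filter 1949 were higher, under 75th percentile scaling 580 and 1052 lower, under quantile normalization 380, with values summed per gene 1009 and 255, and with the length trend removed 555. Of the calls, 86.3% were higher, against 35.5% under 75th percentile scaling and 46.1% under quantile normalization. Leaving out 1 library gave 0 to 3322 transcripts higher and 0 to 605 lower; without 18°C ZT3 or 25°C ZT3 none passed. Dropping either ZT23 library gave the same fit, with 1224 and 274, since the other then has no partner. Genes held under all 3 scalings numbered 158 higher, against 1437. Transcript use called 0 genes, and 1 with a pseudocount of 5.

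Of 77 genes followed, 73 passed the test. Their direction held under every alternative, except that the non-significant clock genes turned: tim was 0.082 with the 5 libraries and replicate block and ranged between -0.83 and 0.42 as 1 library was left out, vri between -0.58 and 1.05, and per between -0.16 and 0.63 and -0.066 with the length trend removed. All 73 lost their call without either ZT3 library, at 18°C or 25°C, 27 without 25°C ZT15, 24 without 18°C ZT15, 17 without a filter, 13 without the replicate block or under quantile normalization, 11 without either ZT23 library, and 9 under 75th percentile scaling or with the length trend removed. The depth behind the coverage is unknown, so low genes carry an error that could not be given, and the causes of these shifts were not tested.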
